A study of Mus musculus with 4 samples.

Results

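Spo11, Mei1, Hormad1, Prdm9, Dmc1 and Rad51ap2 are 6 genes of the machinery that cuts and repairs chromosomes in meiosis. They were read as 6 rows of the 19321 genes in a single-cell RNA table of whole gonads from XX mouse embryos of the C57BL/6 strain. Gonads were taken on 4 embryonic days (E11.5, then E12.5, E13.5, and last E14.5), dissociated, and made into 1 droplet 3′ library per stage, with no mutation or treatment named. The labels do not say how many embryos were pooled. A cell was taken as a germ cell when at least 3 of the 6 germ cell genes Dazl, Ddx4, Dnd1, Mael, Dppa5a and Mov10l1 had a value above 0, and none of the 6 recombination genes is in that rule. It gave 245, 650, 753 and 2410 germ cells in stage order, together 4058 of 18965 cells kept. The other cells, 14907 in all, were the comparison within each library.

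Meiotic recombination starts when the topoisomerase-like enzyme SPO11 cuts both DNA strands, a step that also needs MEI1 and the chromosome axis protein HORMAD1. PRDM9, a histone methyltransferase with a zinc finger array, marks the places in the genome where the cuts are made. The cut ends are then resected and coated by DMC1, a recombinase specific to meiosis. Rad51ap2 encodes a protein of the strand exchange step found in meiotic cells. In the fetal ovary, germ cells turn from mitosis to meiosis after retinoic acid induces Stra8, whose protein acts with MEIOSIN to switch on meiotic genes. Stra8 is therefore the clock against which the 6 genes were read.

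The genes lie on 5 chromosomes of the mm10 build (GRCm38). Spo11 is at chr2:172977700-172993576 (plus strand), Hormad1 at chr3:95559677-95587671 (plus) and Rad51ap2 at chr12:11456079-11462928 (plus). Mei1 is at chr15:82069996-82126814 (plus), Dmc1 at chr15:79561497-79605109 (minus) and Prdm9 at chr17:15543079-15564354 (minus). The annotation places a processed pseudogene, Gm18564, within Prdm9 on the opposite strand, and a microRNA gene, Gm27903, within Dmc1 on its own strand. Whether counting used strand is not given in the sources used here.

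Since the genes were higher together at E14.5, the bases before their annotated starts were searched for sequence motifs. The RefSeq promoter table (GRCm38.p6) holds 5 of the 6 genes, and 250 bases before each start were read on both strands. The motifs were CNCCTCAG (known for STRA8 and MEIOSIN), the E-box CACGTG, the E2F motif TTCCCGC and the CCAAT box. They were chosen after the expression values had been seen. The last 150 bases before the start are shown for the 3 genes with a match to one of the first 3 motifs, and for Dmc1 as a member without a match. Capitals mark those matches, and each sequence is on the gene's own strand.
Prdm9, chr17:15564355-15564504 (minus): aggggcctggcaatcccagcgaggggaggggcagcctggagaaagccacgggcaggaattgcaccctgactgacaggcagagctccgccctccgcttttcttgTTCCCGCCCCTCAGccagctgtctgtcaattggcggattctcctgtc
Hormad1, chr3:95559527-95559676 (plus): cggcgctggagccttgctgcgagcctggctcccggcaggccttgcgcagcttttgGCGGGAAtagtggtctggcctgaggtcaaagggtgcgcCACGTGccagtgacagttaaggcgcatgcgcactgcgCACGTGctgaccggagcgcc
Rad51ap2, chr12:11455905-11456054 (plus): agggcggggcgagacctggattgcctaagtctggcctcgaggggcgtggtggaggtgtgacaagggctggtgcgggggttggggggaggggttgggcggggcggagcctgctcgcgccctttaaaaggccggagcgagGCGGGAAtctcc
Dmc1, chr15:79605110-79605259 (minus): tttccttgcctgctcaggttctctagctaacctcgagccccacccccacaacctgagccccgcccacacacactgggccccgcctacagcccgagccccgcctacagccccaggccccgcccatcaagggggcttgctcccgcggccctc
In Prdm9 the E2F motif (positions -47 to -41 from the start) runs into the CNCCTCAG match (-41 to -34), sharing 1 base. This is the second of 2 annotated Prdm9 starts, the one at the 5′ end of the gene model, and the first start has no match to any of the 4 motifs. Hormad1 has 2 E-boxes, at -57 to -52 and -20 to -15, and an E2F motif on the other strand at -95 to -89. Rad51ap2 has an E2F motif on the other strand at -12 to -6. In Dmc1, and in Mei1, these letters are not in the window. The RefSeq start of Mei1 lies inside the annotated gene body. Of 32851 promoter windows of the same length, 6.42% hold CNCCTCAG, 6.02% the E-box, 3.82% the E2F motif and 33.8% CCAAT, which among the members is found once, in Prdm9 at -19 to -15 on the other strand. A match is a description of the letters only.

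Depth was 69458291 to 80377418 unique molecular identifiers (UMIs, each standing for 1 captured RNA molecule) per library. The median germ cell had 31268, 27740, 24776 and 15541 UMIs in stage order, against 10307 to 13911 for the other cells. Levels are given as CPM, the summed UMIs of a gene in the cells of a group, scaled to a common total of UMIs. With 1 library per stage there is no replicate and no test: each interval is a 95% interval for counting error only, and differences between stages cannot be told apart from differences between libraries. The 6 germ cell genes summed to 2182 to 3317 CPM in the germ cells and to 31.2 to 64.3 CPM in the other cells, as the rule makes them. Markers of red cells (8 of 8 genes detected) summed to 2590, 1657, 1433 and 4541 CPM in the germ cells in stage order and to 21604, 6657, 6595 and 16126 CPM in the other cells. Pre-granulosa markers (7 of 7 detected) summed to 45.2 to 73.2 CPM in the germ cells against 950 to 1309 CPM in the other cells. In germ cells with few red cell UMIs (613 at E13.5, 1022 at E14.5) the log2 differences of the 6 genes between these stages were 1.31 to 4.46, beside 1.41 to 4.77 in all germ cells. The part of the pre-granulosa RNA was not tested. Pairs of libraries shared 19 to 36 cell barcodes, beside 31.4 to 32.3 expected by chance.

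In germ cells the 6 genes fell into 2 kinds of time course. Spo11, Hormad1 and Dmc1 were already detected at E11.5, and their E14.5 level was 2.65-fold, 3.86-fold and 3.51-fold that of E13.5. Mei1, Prdm9 and Rad51ap2 were at or near 0 through E12.5 and were 20.2-fold, 27.2-fold and 26.7-fold higher at E14.5 than at E13.5. All 6 were highest at E14.5, with the E14.5 interval above those of the other 3 stages.

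Among the genes of cut formation, Spo11 had 21, 34, 85 and 475 UMIs in the germ cells of the 4 stages, or 2.65 CPM (1.64 to 4.05), 1.77 CPM (1.23 to 2.48), 4.40 CPM (3.51 to 5.44) and 11.7 CPM (10.6 to 12.8). The 2 early stages overlapped in their intervals, while E13.5 was above E12.5 by 1.31 on the log2 scale (0.72 to 1.93) and E14.5 above E13.5 by 1.41 (1.07 to 1.76). Mei1 had 0 UMIs in the 245 germ cells at E11.5 and in the 650 at E12.5. A count of 0 allows up to 0.378 CPM and 0.156 CPM there, taking 3 UMIs over the group as the floor. Mei1 was then 0.466 CPM (9 UMIs) at E13.5 and 9.41 CPM (383 UMIs) at E14.5, a log2 difference of 4.34 (3.40 to 5.48). Against E11.5 taken at this floor, Mei1 was 24.9-fold higher at E14.5.

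Hormad1 was the member that was higher at E12.5 than at E11.5 beyond counting error. Its levels in stage order were 7.81 CPM (5.99 to 10.0), 29.7 CPM (27.3 to 32.2), 24.6 CPM (22.5 to 26.9) and 94.98 CPM (92.0 to 98.0). The level at E12.5 was thus 3.80-fold that at E11.5, a log2 difference of 1.93 (1.55 to 2.33). Between E12.5 and E13.5 Hormad1 was slightly lower, by -0.27 on the log2 scale (-0.45 to -0.09). It was 1.95 higher (1.81 to 2.09) at E14.5 than at E13.5.

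Prdm9 had 3 UMIs (0.378 CPM), then 2 (0.104 CPM), then 24 (1.24 CPM, 0.80 to 1.85), and 1377 at the last stage (33.8 CPM, 32.1 to 35.7). The 2 early values do not differ beyond counting error. E13.5 was above E12.5 by 3.57 on the log2 scale (1.56 to 6.70), and E14.5 above E13.5 by 4.77 (4.19 to 5.41). Prdm9 at E13.5 stood at 3.67% of its E14.5 level, Rad51ap2 at 3.74% and Mei1 at 4.95%, against 25.9% for Hormad1, 28.5% for Dmc1 and 37.7% for Spo11.

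Of the genes of strand exchange, Dmc1 was 3.78 CPM (2.55 to 5.40), 5.58 CPM (4.57 to 6.74), 13.8 CPM (12.2 to 15.6) and 48.5 CPM (46.4 to 50.7) in stage order. Its levels were in the order of the stages, and the E11.5 and E12.5 intervals overlapped. On the log2 scale the steps were 0.56 (-0.03 to 1.20), 1.31 (0.98 to 1.65) and lastly 1.81 (1.63 to 2.001).

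Rad51ap2 had 0 UMIs in the E11.5 germ cells, then 9 (0.469 CPM), then 12 (0.621 CPM), and 676 in those of E14.5 (16.6 CPM, 15.4 to 17.9). E12.5 and E13.5 did not differ beyond counting error (log2 0.40, -0.97 to 1.83). The step to E14.5 was 4.74 (3.93 to 5.70), and against E11.5 the E14.5 level was at least 43.9-fold higher.

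**Figure D1:**
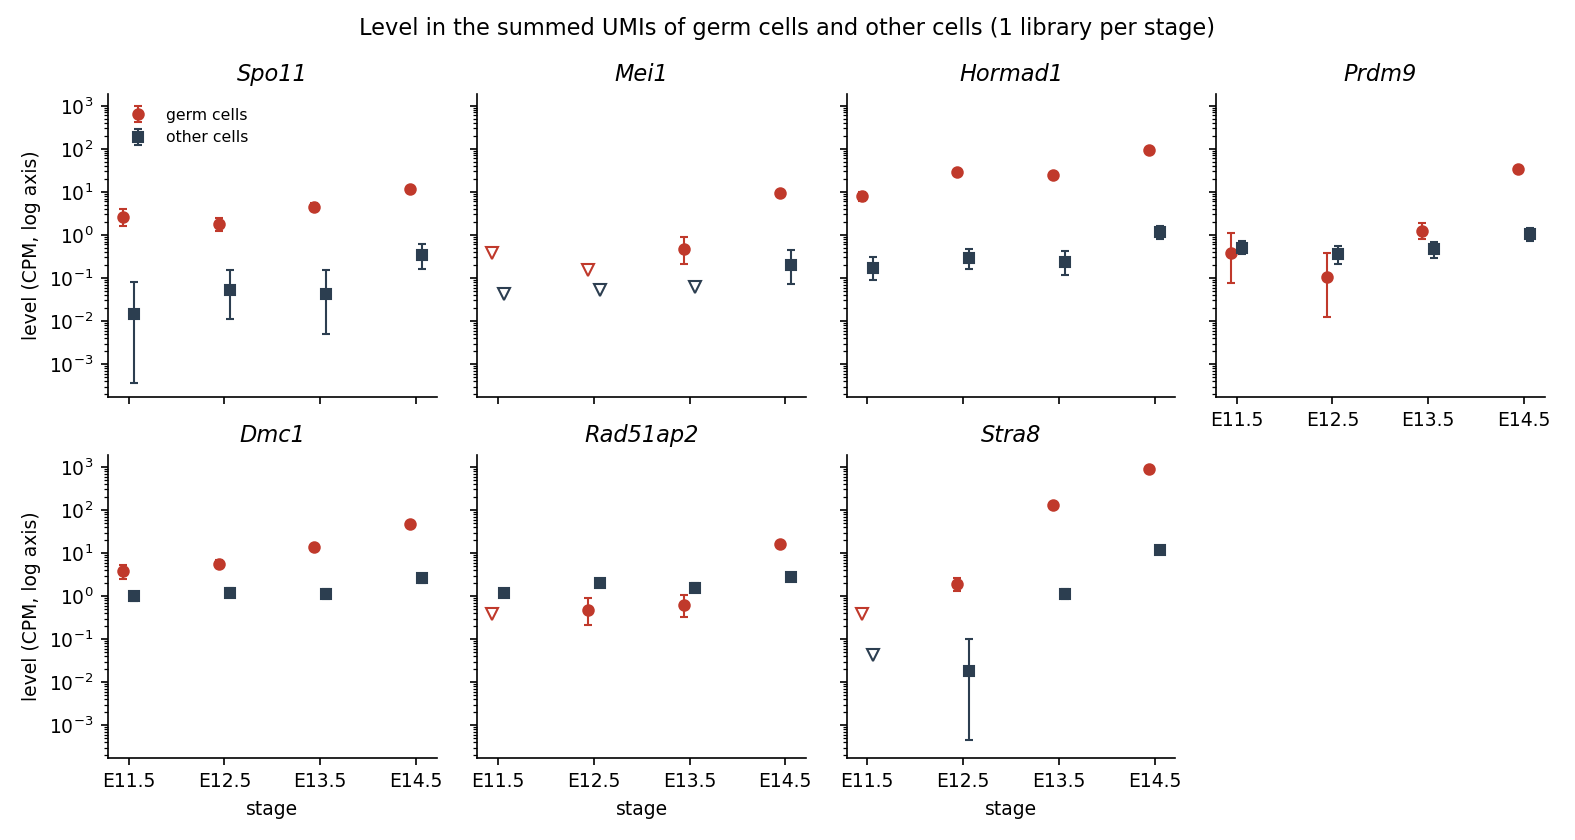
Level (CPM, log axis) of each gene in the summed UMIs of the germ cells (circles) and the other cells (squares) at 4 stages, with 95% counting intervals; open triangles stand at the floor of 3 UMIs where no UMI was found. Mei1, Prdm9 and Rad51ap2 lie at or below 1.24 CPM in germ cells through E13.5 and at 9.41 to 33.8 CPM at E14.5, and Rad51ap2 is lower in germ cells than in other cells before E14.5.

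A rule of size was used to read these differences against all genes: at least 50 UMIs over both groups, at least 20 CPM in the higher group, a ratio of 4 or more, and separate intervals. At E14.5 against E13.5, 1.21% of 5631 genes tested were higher by this rule and 0.107% lower, and of the 3 members that reached 20 CPM, Prdm9 alone was. At E14.5 against E11.5, 6.46% of 5739 genes were higher (371) and 1.69% lower (97), and Hormad1, Prdm9 and Dmc1 were among the higher. Of these stages the 3 reached 20 CPM only at E14.5, so that nothing is read from their number. With no minimum CPM, 13.6% of 12412 genes were higher, and all 6 members with them. Spo11, Mei1 and Rad51ap2 stayed under 20 CPM. Scaled by the median of ratios in place of total UMIs, 173 genes were higher and 171 lower, which shifts every log2 difference by -0.38. The median log2 difference of the genes tested was 0.29.

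In single germ cells the 6 genes were sparse. After each cell was thinned to 2000 UMIs, a UMI of Hormad1 was found in 2.86%, 4.92%, 5.44% and 18.3% of germ cells in stage order, of Dmc1 in 1.22%, 1.54%, 3.05% and 9.92%, and of Prdm9 in 6.93% at E14.5. At the earlier stages 0 thinned germ cells had a Prdm9 UMI, which at this depth does not show its absence: with all UMIs, 1.22%, 0.308% and 2.52% of germ cells had one. The same shares in the other cells at E14.5 were 0.263% for Hormad1, 0.832% for Dmc1 and 0.219% for Prdm9. With all UMIs, 72.3% of E14.5 germ cells had a UMI of Hormad1, 49.0% of Dmc1, 27.6% of Prdm9, 18.1% of Rad51ap2, 17.6% of Spo11 and 13.3% of Mei1. At least 1 of the 6 was found in 87.0% of E14.5 germ cells, at least 3 in 31.2% and all 6 in 21 cells (0.871%). At E13.5 at least 3 were found in 3.19% of germ cells, although those cells were deeper.

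The other cells of the gonad had less of all 6 genes at E14.5, but not by the same factor. Expressed as a percentage of the germ cell level of that library, the level in other cells was 1.24% for Hormad1, 2.15% for Mei1, 2.89% for Spo11, 3.09% for Prdm9, 5.35% for Dmc1 and 16.7% for Rad51ap2, against 1.26% for Stra8. All 6 were higher in germ cells at E14.5 beyond counting error, and Hormad1, Prdm9 and Dmc1, which reached 20 CPM only in germ cells, also passed the rule of size, as did 5.02% of 6659 genes tested. As log2 differences, the 2 ends of this range were 6.33 (5.85 to 6.85) for Hormad1 and 2.59 (2.25 to 2.94) for Rad51ap2. The part of free RNA from germ cells in these values was not tested.

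Rad51ap2 was the member for which the 2 kinds of cell changed places. In the other cells it had 81, 112, 75 and 82 UMIs, or 1.17 CPM (0.93 to 1.46), 1.99 CPM (1.64 to 2.39), 1.58 CPM (1.24 to 1.98) and 2.76 CPM (2.199 to 3.43). Germ cells at E11.5 had 0 UMIs and, taken at the floor of 3 UMIs, were 3.10-fold lower. They were lower by -2.08 on the log2 scale (-3.25 to -1.11) at E12.5 and by -1.35 (-2.36 to -0.46) at E13.5. At E14.5 they were 2.59 higher. Other cells were also grouped by lists of somatic markers, of which a cell can meet more than 1. Summed over all stages, whose shares differ between lists, Rad51ap2 was 3.39 CPM (2.73 to 4.16) in the 1860 cells of the mesothelial list (Upk3b, Krt19, Lhx2, Msln), 1.96 (1.71 to 2.24) in the 7964 of the pre-granulosa list and 1.66 (1.32 to 2.08) in the 3534 of the interstitial list. It was 0.262 CPM (3 UMIs, 0.0541 to 0.766) in the 632 cells of the endothelial list, and 1.64 (1.44 to 1.85) in the 10426 cells that met the red cell list. Most of the 14907 other cells met that list, so it does not pick out red cells. At E12.5 Rad51ap2 was 1.81 CPM (1.38 to 2.33) in the pre-granulosa and 2.44 CPM (1.59 to 3.57) in the interstitial list, within counting error. At E14.5 it was 4.63 CPM (3.55 to 5.94) against 1.998 CPM (1.14 to 3.24). This split was added after the data had been seen.

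Dmc1 in other cells was 0.984, 1.21, 1.14 and 2.60 CPM in stage order. By list it was 2.16 CPM (1.64 to 2.79) in the mesothelial cells, 1.96 (1.58 to 2.41) in the interstitial, 1.13 (0.94 to 1.35) in the pre-granulosa and 0.175 (2 UMIs; 0.0212 to 0.631) in the endothelial list, and 1.34 (1.16 to 1.54) in the red cell list. At E14.5 the interstitial list (3.87 CPM) was above the mesothelial (3.32 CPM), within counting error. Stra8, measured in the same cells, was between 1.94 and 3.13 CPM in these 5 lists. Prdm9 in other cells was 0.507, 0.355, 0.463 and 1.05 CPM, and germ cells differed from them by log2 -0.42 (-2.77 to 1.24), -1.77 (-4.91 to 0.27), 1.42 (0.53 to 2.33) and 5.02 (4.50 to 5.58) in the same order. Prdm9 was therefore not distinguishable between germ cells and other cells before E13.5. Spo11 was found with 1, 3, 2 and 10 UMIs in the other cells, and Hormad1 with 12, 16, 11 and 35. The difference in the other cells between E13.5 and E14.5 was also subtracted from that in germ cells. Spo11 then came to -1.60 and Hormad1 to -0.40 on the log2 scale, a turn in sign. The other cells themselves differed by 3.00 (0.77 to 6.23) for Spo11 and 2.35 (1.34 to 3.48) for Hormad1. These intervals contain the germ cell differences of 1.41 and 1.95, so the turned signs are not beyond counting error.

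The 6 genes were next read against Stra8 in the same germ cells. Stra8 had 0, 36, 2516 and 37169 UMIs in the germ cells, or 0, 1.88, 130.2 and 913 CPM. At E12.5, 20 of 650 germ cells (3.08%) had a Stra8 UMI, while Hormad1 stood at 29.7 CPM. In the 630 germ cells of E12.5 without a Stra8 UMI, Hormad1 was 28.9 CPM (26.5 to 31.5), against 7.81 CPM (5.99 to 10.0) at E11.5, where no germ cell had one. The early Hormad1 difference was thus measured in cells in which Stra8 was not detected. Within E12.5, Hormad1 was 54.8 CPM in the 20 cells with a Stra8 UMI, higher by log2 0.92 (0.35 to 1.45). With Stra8 called from 2000 or 4000 UMIs drawn per cell, this difference was 1.56 (-1.49 to 3.42) and -0.19 (-2.07 to 1.18).

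At E13.5, 50.9% of germ cells had a Stra8 UMI. Of the 19 cells with Prdm9, 17 also had Stra8 (89.5%, 66.9 to 98.7), as had 8 of 9 cells with Rad51ap2 (88.9%, 51.8 to 99.7) and 7 of 9 with Mei1 (77.8%, 40.0 to 97.2). The shares were 61.7% (50.3 to 72.3) for Spo11, 60.2% (53.4 to 66.7) for Dmc1 and 54.1% (48.4 to 59.6) for Hormad1. The intervals for Prdm9, Rad51ap2 and Dmc1 lay above the share in all germ cells, and those for Mei1, Spo11 and Hormad1 contained it. At E14.5, where 95.02% of germ cells had Stra8, the shares were 97.2% to 99.2%.

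Levels were also compared by Stra8 class, at equal depth of Stra8 detection. Stra8 was called from 2000 UMIs drawn per cell, which put 143 of 753 germ cells at E13.5 and 1774 of 2410 at E14.5 in the class with Stra8. The class without Stra8 thus holds many cells that have a Stra8 UMI at full depth. Only 370 germ cells at E13.5 and 120 at E14.5 had none at any depth. At E13.5 the cells with Stra8 had 4.35 CPM of Prdm9 against 0.621 without, a log2 difference of 2.81 (1.53 to 4.14), and 1.86 CPM of Rad51ap2 against 0.373, or 2.32 (0.42 to 4.23). The difference was 1.14 (0.41 to 1.83) for Spo11, 0.88 (0.47 to 1.28) for Dmc1 and 0.74 (0.43 to 1.04) for Hormad1, and for Mei1, with 9 UMIs in all, it was 0.51 (-2.79 to 2.91). The cells with Stra8 were the shallower ones, with a median of 21729 UMIs against 25484.

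At E14.5 the differences with against without Stra8 were 0.82 (0.71 to 0.94) for Hormad1, 1.00 (0.65 to 1.35) for Spo11, 1.12 (0.95 to 1.30) for Dmc1, 1.33 (1.11 to 1.55) for Prdm9, 1.50 (1.07 to 1.96) for Mei1 and 1.60 (1.27 to 1.94) for Rad51ap2. Cells with 3 or more Stra8 UMIs had the highest level of each gene, 49.6 CPM of Prdm9 against 16.5 in cells with 0 and 70.3 CPM of Dmc1 against 26.7. The rule of size was passed by 0.0564% of 5319 genes at E13.5 and 0.00% of 5576 at E14.5 in the direction of cells with Stra8, and by none of the members that could be tested. Calling Stra8 from 4000 or from all UMIs moved the summed difference of the 6 genes at E14.5 from 1.05 to 1.60 and 1.93.

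**Figure D2:**
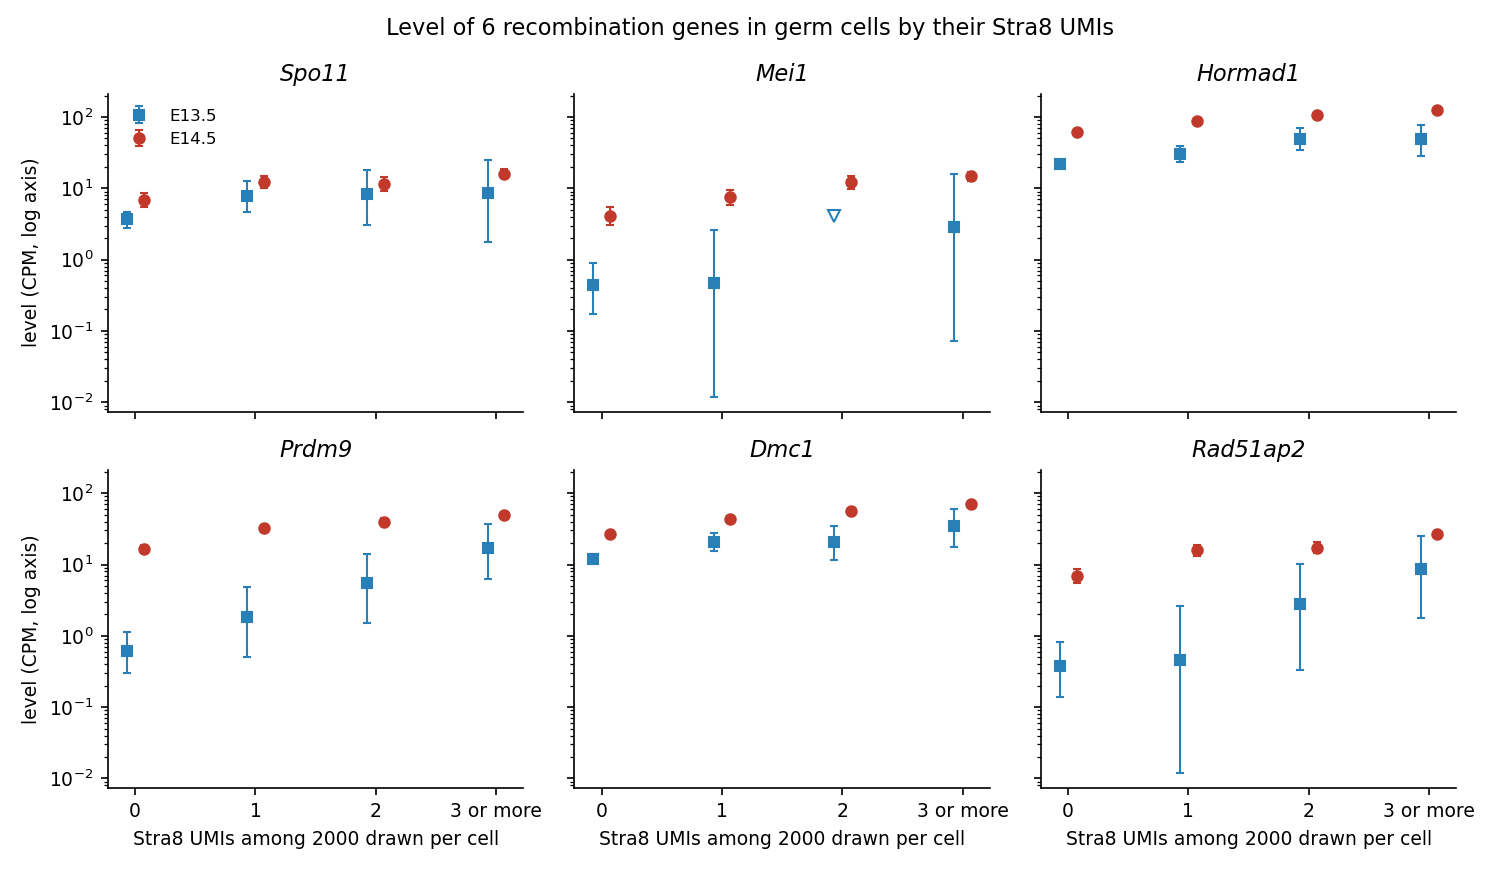
Level (CPM, log axis) of each gene in germ cells with 0, 1, 2 and 3 or more Stra8 UMIs among 2000 drawn per cell, at E13.5 (squares) and E14.5 (circles), with 95% counting intervals; the open triangle stands at the floor of 3 UMIs. In cells with 0 Stra8 UMIs among the 2000 drawn, Prdm9 is 0.621 CPM at E13.5 and 16.5 CPM at E14.5. Many of these cells have a Stra8 UMI at full depth, and in cells with none at any depth Prdm9 is 0.200 and 4.11 CPM.

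Germ cells in which no Stra8 UMI was found at any depth numbered 245, 630, 370 and 120 in stage order. In them Dmc1 was 3.78, 5.59, 9.91 and 13.97 CPM, and the interval at E13.5 (8.06 to 12.1) lay above that at E12.5 (4.57 to 6.77). Prdm9 in these cells was 0.378, 0.107, 0.200 and 4.11 CPM (10 UMIs at E14.5, 1.97 to 7.56). Hormad1 was 7.81, 28.9, 19.7 and 31.2 CPM. At E14.5 all 6 genes were lower in these cells than in all germ cells, with Prdm9 at 4.11 against 33.8 CPM.

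The order within a library was read from a score that uses none of these genes: the log2 ratio of 14 genes higher in meiotic germ cells (axis and synaptonemal complex genes such as Sycp3, Rec8 and Stag3) to 11 pluripotency genes (such as Pou5f1, Nanog and Sox2), each sum with 100 CPM added. At E14.5 the 2410 germ cells were cut into 10 bins of 241. Stra8 passed 50% of its highest level in bin 4, Hormad1 and Spo11 in bin 7, Dmc1 and Mei1 in bin 8, and Prdm9 and Rad51ap2 in bin 9. At this point Stra8 was ahead of all 6, and 5 bins ahead of the last 2. At 25% of the highest level it was not: Hormad1 passed 25% in bin 2, Stra8 and Spo11 in bin 3, Dmc1 in bin 6, Mei1 in bin 7, Prdm9 in bin 8 and Rad51ap2 in bin 9.

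Stra8 was 132 CPM in bin 1, 854 in bin 4, 1551 in bin 8, 1556 in bin 9 and 1272 in bin 10. Its last bin was below the one before by -0.29 on the log2 scale (-0.35 to -0.23), while all 6 members had their highest level in bin 10. From bin 9 to bin 10 Prdm9 went from 101 to 192 CPM (log2 0.92, 0.73 to 1.12), Rad51ap2 from 48.5 to 93.8 (0.95, 0.67 to 1.24) and Spo11 from 17.7 to 27.8 (0.65, 0.16 to 1.15). Dmc1 differed by 0.46 (0.25 to 0.67) and Hormad1 by 0.20 (0.04 to 0.37), and Mei1 by 0.15 (-0.26 to 0.56), within counting error.

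The starting levels set the 2 kinds of gene apart here too. Bin 1 held 14.1 CPM of Dmc1, 39.5 of Hormad1 and 4.43 of Spo11, or 10.0%, 18.9% and 15.9% of their levels in bin 10. It held 1.35 CPM of Prdm9 (7 UMIs), 0.385 of Rad51ap2 (2 UMIs) and 0.192 of Mei1 (1 UMI), or 0.702%, 0.410% and 0.586% of the bin 10 levels of 192, 93.8 and 32.9 CPM. The median depth of a cell went from 20243 UMIs in bin 1 to 12703 in bin 10, and its part in the pattern was not tested beyond the values of cells above a common depth. In 10 bins of the 2306 cells with at least 9791 UMIs, the 50% point of all 6 still came after that of Stra8. The same held with the rising or the falling list alone, and for 5 of 6 with 5 bins.

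At E13.5, 753 germ cells in bins of 75 or 76 gave another order of the 50% points. Stra8 was 1.86 CPM in bin 1 and 594 in bin 10, and passed 50% in bin 9. Spo11, Dmc1 and Hormad1 passed 50% of their highest bin earlier, in bins 3, 5 and 6. They stood at 2.78, 5.57 and 11.6 CPM in bin 1. The highest bins were below those of E14.5, at 594 against 1556 CPM for Stra8 and 7.52 against 27.8 CPM for Spo11. The 50% points of the 2 stages thus stand at unlike levels, and their orders cannot be compared directly. Prdm9, Rad51ap2 and Mei1 passed 50% in bin 10, with 10, 9 and 4 of their 24, 12 and 9 UMIs there. Counts this small leave the bin uncertain. With 5 bins Stra8 itself passed 50% in bin 5, the last, so that no gene could come after it.

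**Figure D3:**
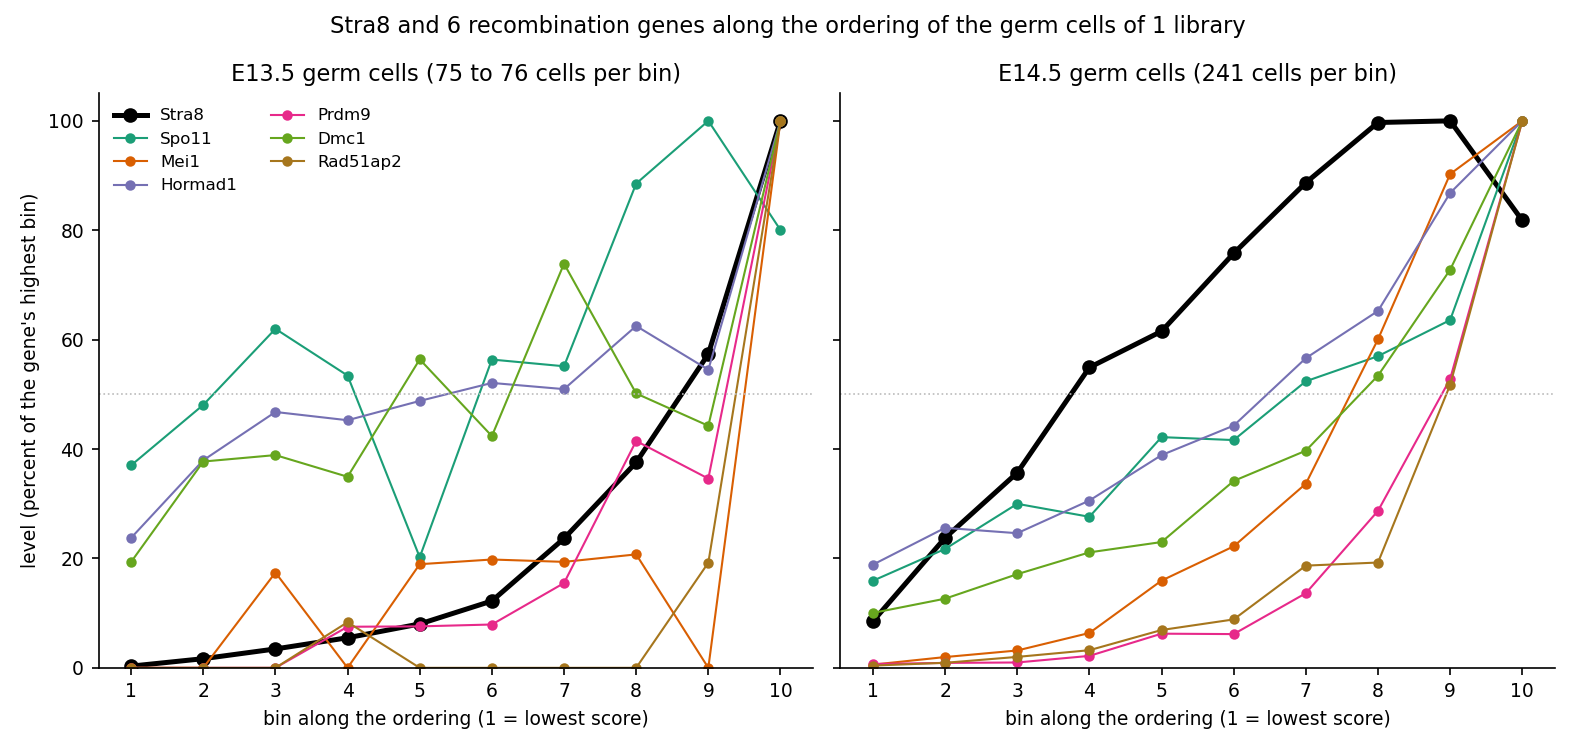
Level of Stra8 (thick black line) and the 6 genes in 10 bins of germ cells of 1 library, ordered by the score, as a percentage of each gene's highest bin, with 1 panel per stage (E13.5, E14.5); the dotted line is 50%. At E14.5 Stra8 crosses 50% in bin 4 and the 6 genes between bins 7 and 9, and Stra8 is at 81.8% in bin 10 where all 6 are at their highest.

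The libraries of E13.5 and E14.5 differed in how far their germ cells lay along this score. The comparison was therefore repeated between germ cells in the same range of the score, a split added after the data had been seen. A score above 3 was found in 10 germ cells at E13.5 (1.33%) and in 1088 at E14.5 (45.1%), and a score below 0 in 347 (46.1%) and 64 (2.66%). Prdm9, 27.2-fold higher at E14.5 over all germ cells, was 1.27 against 1.79 CPM at scores of 0 to 1, 1.94 against 1.92 at 1 to 2 and 6.73 against 9.67 at 2 to 3. Those log2 differences were 0.49 (-0.96 to 2.01), -0.02 (-1.52 to 1.78) and 0.52 (-0.89 to 2.43), none beyond counting error. Above 3 it was 29.6 CPM (6 UMIs) against 80.5, a log2 difference of 1.44 (0.32 to 2.89). Within every range the E14.5 cells lay further along, with a median score of 4.43 against 3.68 above 3. At 0 to 1 it was 0.58 against 0.44, and at 1 to 2 it was 1.56 against 1.35. The part of this shift in the differences was not tested.

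Rad51ap2 above a score of 3 was 34.5 CPM (7 UMIs) at E13.5 and 38.3 at E14.5, a log2 difference of 0.15 (-0.90 to 1.47). It differed by 1.39 (-0.68 to 4.54) at scores of 1 to 2 and 0.84 (-1.09 to 3.92) at 2 to 3. Mei1 differed by 1.71 (-4.17 to 5.98) below 0 and -0.55 (-4.13 to 2.57) at 0 to 1. At 2 to 3 it differed by 0.49 (-1.46 to 3.58), and above 3 by 1.09 (-0.77 to 4.14). Dmc1 differed by -0.11 (-0.54 to 0.30) at scores of 0 to 1, 0.64 (0.15 to 1.17) at 1 to 2, 0.47 (-0.27 to 1.33) at 2 to 3 and 0.66 (-0.18 to 1.67) above 3. Spo11 differed by -0.75 (-3.09 to 0.93) below 0 and 0.35 (-0.40 to 1.13) at 0 to 1. It differed by -0.08 (-0.83 to 0.72) at 1 to 2 and 0.62 (-0.78 to 2.53) at 2 to 3. Hormad1 differed within ranges of the score, with E14.5 higher by 0.85 (0.38 to 1.30) below 0 and 0.80 (0.51 to 1.09) at 0 to 1. It was higher by 0.84 (0.50 to 1.21) at 1 to 2 and 1.02 (0.42 to 1.69) at 2 to 3. Above 3 the difference was 0.42 (-0.17 to 1.08), within counting error. Stra8 was likewise higher at E14.5 in all 5 ranges, by 0.56 to 1.17. The wide intervals of the sparser genes do not show that levels were equal.

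**Figure D4:**
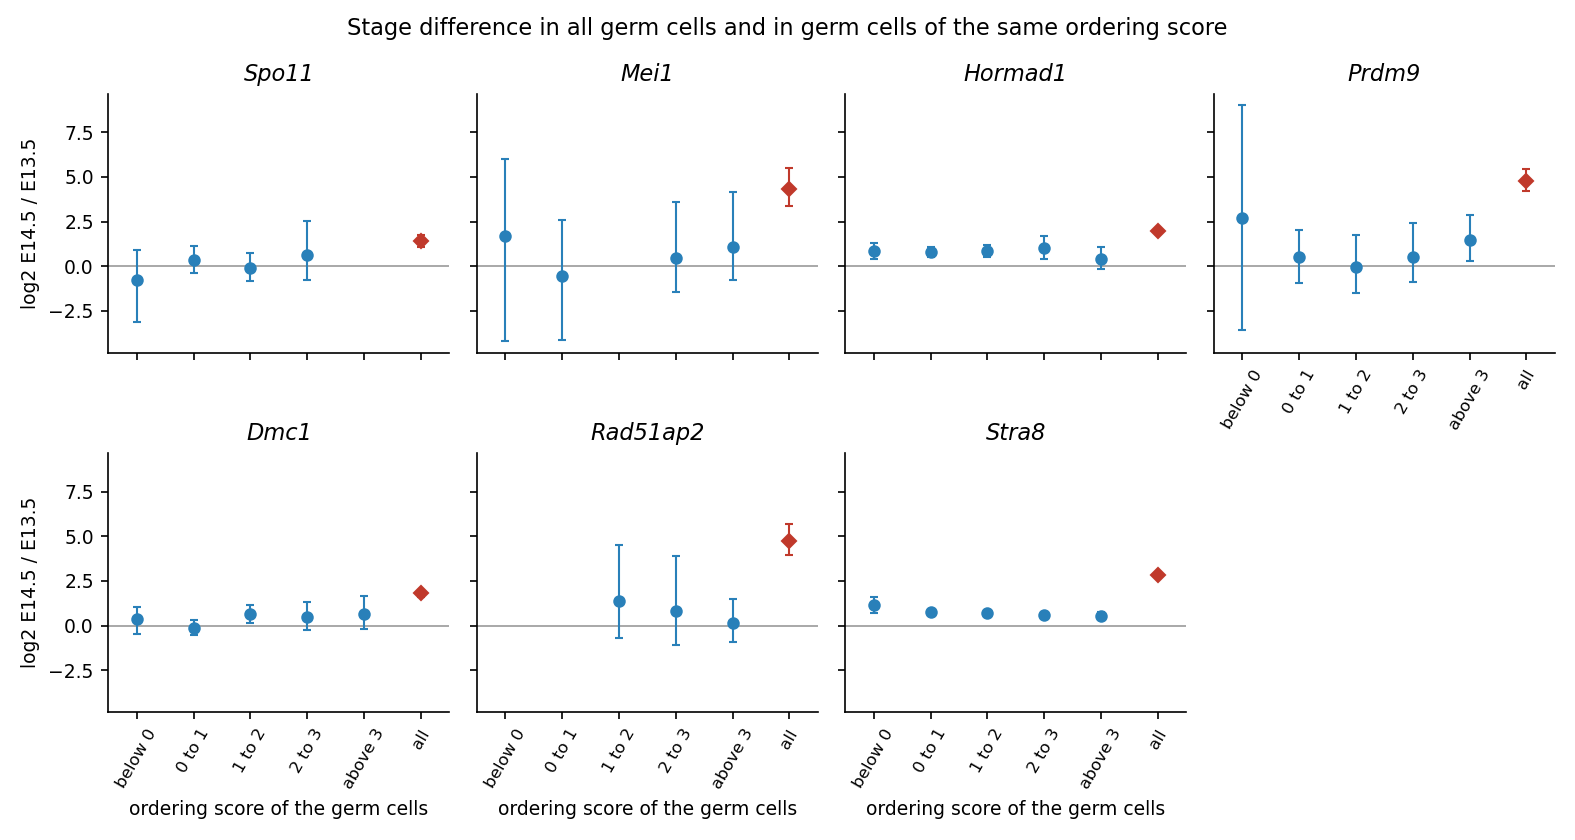
Log2 ratio of the level at E14.5 to that at E13.5 in germ cells of the same range of the ordering score (circles) and in all germ cells (diamonds), with 95% counting intervals; ranges in which a stage had 0 UMIs are left out. For Prdm9 the ratio is 4.77 over all germ cells and between -0.02 and 0.52 at scores of 0 to 3, while Hormad1 stays at 0.80 to 1.02 in those ranges.

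Of a list of 61 recombination genes, which includes the members, 36 reached the level for the rule of size at E14.5 against E11.5 in germ cells; 11 were higher and 0 lower. Without the members, 8 of 33 were higher. Their median log2 difference was 1.06, beside 0.29 over all genes tested and 6.46% of genes called higher. The list was made with results of these data known and is not independent evidence of a direction. With the median of ratios as the scale, 4 of the genes outside the members were higher, and with no minimum CPM 18 were.

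In the group for cut formation, Zcwpw1, whose protein reads the histone marks that PRDM9 sets, was higher by 2.81 (2.67 to 2.95), from 53.9 to 377 CPM. Hormad2 differed by 1.53 and Rec114 by 1.29, under the ratio of the rule. Ankrd31, a partner of REC114, had 1 UMI at E11.5 and 734 at E14.5 (18.0 CPM) and missed the minimum level. In the group for strand exchange, Brca2, whose protein acts in loading DMC1, was higher by 2.24 (2.01 to 2.48), its meiotic partner Hsf2bp by 2.11 (1.91 to 2.33) and 4930432K21Rik by 2.35 (1.91 to 2.83). Rpa1, a subunit of the single-strand binding complex, was lower by -1.11 (-1.26 to -0.96), short of the rule.

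In the crossover group 3 of 5 genes tested were higher. Ccnb1ip1, which encodes the ubiquitin ligase HEI10, differed by 4.97 (3.99 to 6.19), the helicase gene Hfm1 by 4.05 (3.40 to 4.79) and Tex11 by 3.48 (2.89 to 4.14). The same 3 and Prdm9 were the 4 genes of the list higher at E14.5 against E13.5, beside 1.21% of all genes tested. In the checkpoint group 1 of 10 was higher, the kinase gene Atr, by 2.14 (1.92 to 2.37), and the histone gene H2afx was lower by -1.48 (-1.55 to -1.42), short of the rule.

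**Figure D5:**
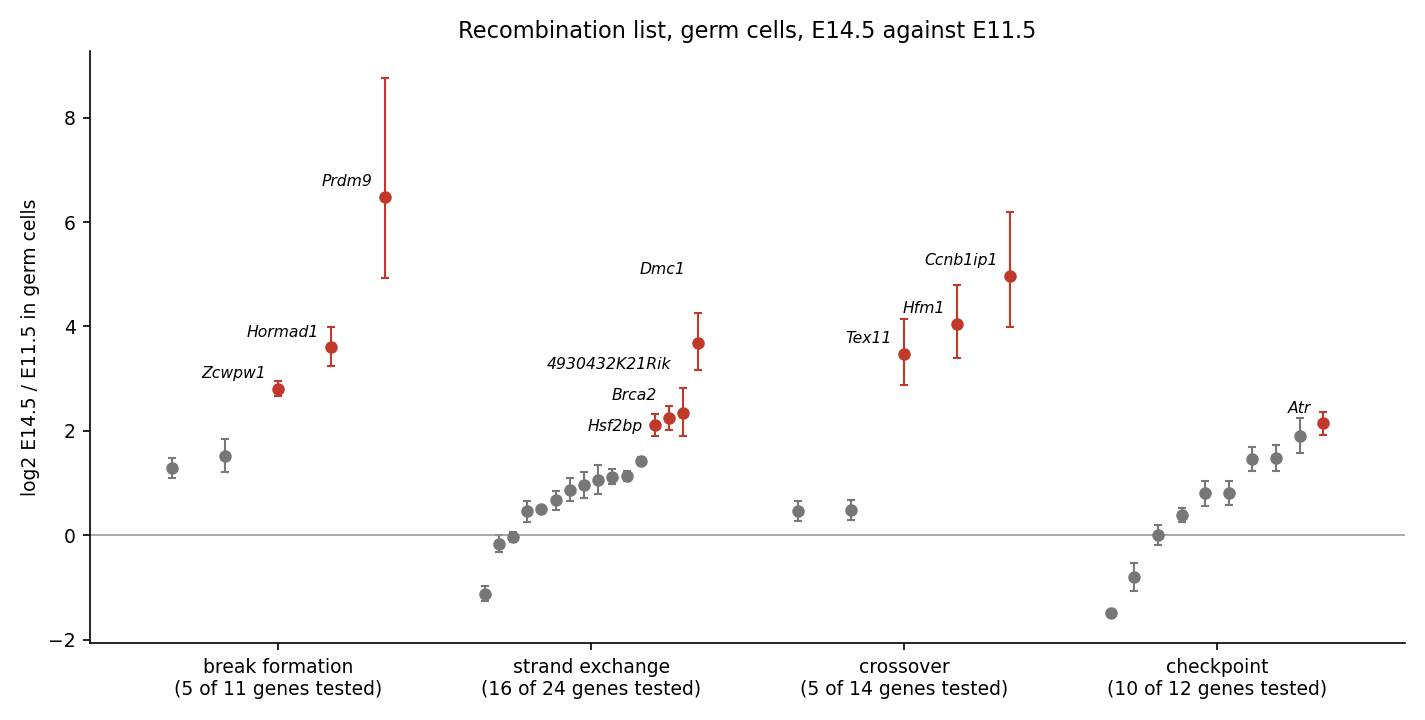
Log2 ratio of the germ cell level at E14.5 to that at E11.5 for the genes of the recombination list that could be tested, in 4 groups ordered by value within each, with 95% counting intervals; red points, with names, passed the rule of size. The crossover genes Ccnb1ip1, Hfm1 and Tex11 lie at 3.48 to 4.97 and H2afx lies at -1.48.

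The genes whose profile over the 8 values (2 kinds of cell at 4 stages) was most like the mean of the members were Tex12 (Pearson r 0.999), Ccnb1ip1 (0.999), Xlr4c (0.998), Sec1 (0.997) and Xlr5a (0.997), out of 9245 genes. Tex12 encodes a central element protein of the synaptonemal complex and was 123 CPM in E14.5 germ cells. Xlr4c and Xlr5a belong to families of near-identical X-linked copies, so their counts are uncertain. The 8 points come from 4 libraries, and such values are a description.

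Over the 10 bins of E14.5 germ cells, the 2 genes most like each member were Mgat2 and D3Ertd751e for Spo11, Rab6a and Emd for Mei1, and Rspry1 and Gins3 for Hormad1. They were Taf11 and Ube2t for Prdm9, Dsel and Fyco1 for Dmc1, and Stk33 and B230354K17Rik for Rad51ap2. Their r lay between 0.991 and 0.998 over 10 bins that share a library and a gradient of depth, while r with Stra8 was 0.720 for Rad51ap2, 0.725 for Prdm9 and 0.785 to 0.837 for the other 4 members.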

How the data were processed

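The deposited table is on a natural log scale: back-transformed, each cell sums to 10000, so a value is ln of 1 plus the gene's share of the cell's UMIs on that scale. Whole UMI counts were recovered from them for 100% of 69792436 values at a relative tolerance of 1e-06, so the count scale was used where the plan had assumed counts. Cell Ranger 2.2.0 and mm10 are named in the submitters' processing notes; the authors' filters are not given in the sources used here. Cells with over 20% mitochondrial UMIs and doublets called in each library with Scrublet in Scanpy 1.11.5 at an assumed rate of 0.06 (1.96% to 2.30% of cells) were removed. Counts were summed over cells, with exact Poisson, binomial-split and Clopper-Pearson intervals (SciPy 1.17.1). Shares used cells thinned to 2000 UMIs. A stage at 0 took a floor of 3 UMIs. Scripts were tested on simulated data. Members and lists were chosen with earlier results of these data known. Named genes are the members, Stra8, up to 3 genes per group of the recombination list past the rule of size with the largest differences, and the nearest profiles over log2(CPM + 5). Rec114, Hormad2, Ankrd31, Rpa1 and H2afx were named after their values were seen. Alternatives changed the germ cell rule, doublets, depth, scale, thinning, ordering and minimum level.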

Additional observations from a re-analysis of the deposited data

Results flagged for a closer look

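Rad51ap2 had opposite directions between germ cells and other cells at different stages. Germ cells against other cells gave -1.63 on the log2 scale at E11.5, where germ cells had 0 UMIs and were taken at the floor. The values were -2.08 at E12.5 and -1.35 at E13.5, whereas E14.5 gave 2.59. The difference between stages was not tested, since each stage is 1 library. No other member had differences in both directions beyond counting error.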

How the results depend on the processing

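The log2 differences between E13.5 and E14.5 kept their sign and stayed within the counting interval of the reported value with at least 2, 4 or 5 germ cell markers, with doublets kept, above a common depth of 9791 UMIs, and in germ cells with few red cell UMIs. The median-of-ratios scale moved 1 of them, Hormad1, to 1.77. Subtracting the difference in other cells gave -1.60 for Spo11 and -0.40 for Hormad1, which turned their sign, though not beyond counting error. It gave 3.59 for Prdm9, 0.62 for Dmc1 and 2.66 for Mei1, whose 0 UMIs in the other cells at E13.5 were taken at the floor. For Spo11 at E14.5 against E11.5 it gave -2.40, also within counting error. The other cells held 2 and 10 Spo11 UMIs at E13.5 and E14.5. The summed germ cell level at E14.5, 215 CPM, was 202 with at least 2 markers, 206 with at least 5, 210.4 with doublets kept, 210.1 above the common depth, 221 with the rule applied after thinning and 246 as a mean over cells. In other cells the sum, 8.13 CPM, was 12.2 with at least 4 markers required of germ cells and 48.2 with at least 5, which move germ cells into the other cells. The share of E14.5 germ cells with any of the 6, 34.4%, was 32.3% with at least 2 markers, 51.0% thinned to 4000 UMIs and 87.0% without thinning. The E14.5 difference by Stra8 class, 1.05, was 1.60 from 4000 UMIs and 1.93 from all UMIs. At E13.5 the number of members at 50% of their highest bin after Stra8, 3, was 1 with the falling list alone. There Mei1 came before Stra8 by -10% of cells. With 5 bins the number was 0, but Stra8 passed 50% in the last bin, so that no gene could come after it. Genes past the rule of size at E14.5 against E11.5 numbered 1688 higher and 246 lower with no minimum CPM, and 173 and 171 with the median of ratios; outside the members the recombination list gave 18 and 4. Except where stated, the cause was not tested. Depth limits Mei1, Prdm9 and Rad51ap2 before E14.5, with 0 to 24 UMIs per stage. No paired analysis was possible because each stage has 1 library.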
